A study of Arabidopsis thaliana with 6 samples.

Results

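The genes described here are 10 oxidase genes of gibberellin (GA) metabolism in *Arabidopsis thaliana*, chosen by locus identifier from the 32833 genes of the count tables. They are the GA 20-oxidase genes *GA20ox1*, *GA20ox2* and *GA20ox3*, the GA 3-oxidase genes *GA3ox1* and *GA3ox2*, the GA 2-oxidase genes *GA2ox1*, *GA2ox2*, *GA2ox6* and *GA2ox8*, and the ent-kaurene oxidase gene *KO*. RNA-seq read counts came from 6 libraries of 14-day-old seedlings grown in long days of 16 h light and 8 h dark, 2 libraries each of the mutants *fio1-1* and *fio1-2* and of the wild type Col-0. No group was treated. FIO1 is related to METTL16, a human enzyme that writes N6-methyladenosine in RNA, and the comparison asks how the transcriptome differs when FIO1 is impaired.

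In *fio1-1* a changed splice site removes a few residues of the protein. The group labelled *fio1-2* is taken here to be a CRISPR deletion allele that also goes by the name *fio1-5*. The name *fio1-2* is in use for a T-DNA line as well, which was not analysed here. Each mutant is a single line, both may keep some FIO1 activity, and each library is a pool of seedlings. The 2 libraries of a genotype are described as biological replicates. Whether they came from plants grown apart is not stated, so p-values speak only of these pools. The spread behind each p-value was estimated mostly over all genes and only in small part from the gene itself. The labels name soil and the methods name agar plates, so the growth medium is uncertain.

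Gibberellins are growth hormones that promote germination, stem elongation and flowering. KO acts early in the pathway, converting ent-kaurene toward ent-kaurenoic acid. GA 20-oxidases and then GA 3-oxidases carry out the last steps that make the bioactive hormones, and GA 2-oxidases inactivate bioactive gibberellins or their precursors. Bioactive gibberellin lowers the transcript levels of several *GA20ox* and *GA3ox* genes and raises those of several *GA2ox* genes, a feedback that runs through the DELLA proteins. TEM1 and TEM2 are transcription factors that repress *GA3ox1* and *GA3ox2*.

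Total counts lay between 9717111 and 13055457 per library. Replicates differed by more than counting error, the chi-square per gene averaging 1.48 to 1.97 within genotypes. *FIO1* itself had a level of 8.24 and 8.54 CPM, the reads of a gene scaled to a common library size, in *fio1-1* and 6.97 and 8.65 CPM in *fio1-2*, against 11.1 and 8.94 CPM in Col-0, and passed the test in neither mutant (adjusted p = 0.346 and 0.146). Neither allele removes the transcript, so this level does not check the labels. The leaf marker list summed to 24558 and 23372 CPM in *fio1-1* and 18865 and 18811 CPM in *fio1-2*, against 20906 and 20641 CPM in Col-0. Of its 5 genes, 4 rose in *fio1-1*, and 2 rose and 3 fell in *fio1-2*. The root list made up 0.170% and 0.177% of the counts in *fio1-1* and 0.231% and 0.225% in *fio1-2*, against 0.168% and 0.165% in Col-0. Of its 5 genes, 2 rose and 1 fell in *fio1-1*, and 3 rose in *fio1-2*. Among all genes tested, 28.6% rose or fell in *fio1-1* and 32.5% in *fio1-2*. The part of the shifts in these marker lists in the oxidase levels was not tested. Of the 3 meristem markers, *WUS* and *CLV3* were at 0 or 1 count in every library. The other, *STM*, had 43 and 41 reads in *fio1-1* and 37 and 63 reads in *fio1-2*, against 27 and 43 reads in Col-0. It passed in neither mutant (limma-voom adjusted p = 0.498 and 0.451). Of the 7 floral organ markers, *AG* was at 0 in all 6 libraries and only *SEP3* was tested, which rose in *fio1-2*. The list summed to 9.43 and 8.64 CPM in *fio1-1* and 18.5 and 19.5 CPM in *fio1-2*, against 8.79 and 8.85 CPM in Col-0. Of this, *SEP3* held 8.24 and 7.35 CPM in *fio1-1* and 16.6 and 17.3 CPM in *fio1-2*, against 7.05 and 7.41 CPM in Col-0.

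Of the 10 genes, 7 passed the filter on low counts and were tested among 21268 genes. *GA20ox1*, *GA2ox1* and *GA2ox8* did not pass it, and *GA20ox3* passed only through its counts in *fio1-2*, so that its difference is set in part by the filter. None of the 10 overlaps another annotated gene, and no 50-base window of their exons occurs elsewhere in the genome. Below, a gene that rose or fell had a limma-voom adjusted p under 0.05, adjusted by Benjamini-Hochberg over all genes tested, and a called gene also had an absolute log2 fold change of at least 1. Levels are CPM scaled with TMM factors, which correct for library composition, and values between genes are compared only as CPM per kb of exon.

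In *fio1-1*, *GA20ox2* rose and *GA3ox1*, *GA3ox2*, *GA2ox6* and *KO* fell. Thus 5 of the 10 genes, 7 of them tested, passed the adjusted p, 1 higher and 4 lower. Of all genes tested 28.6% passed, 14.2% higher and 14.3% lower. Called were *GA20ox2*, higher, and *GA3ox2*, lower, or 2 of 10, 7 of them tested. Of all genes tested 4.91% were called, 2.92% higher and 1.99% lower. In *fio1-2*, *GA20ox2*, *GA20ox3* and *GA2ox2* rose and *GA3ox1*, *GA3ox2* and *KO* fell. Thus 6 of the 10, 7 of them tested, passed, 3 in each direction. Of all genes tested 32.5% passed, 16.4% higher and 16.1% lower. Called were *GA20ox2* and *GA20ox3*, higher, and *GA3ox1*, lower, or 3 of 10, 7 of them tested. Of all genes tested 5.93% were called, 4.24% higher and 1.70% lower. The 6 that passed and the 3 called include *GA20ox3*, which was tested only through its counts in *fio1-2*. Over the 7 tested genes the median log2 fold change was −0.44 in *fio1-1* and −0.26 in *fio1-2*, and over all genes it was 0.01 and 0.00. The 2 contrasts share the Col-0 libraries. In libraries of whole seedlings, a change in the number of cells that express a gene and a change in its RNA per cell cannot be told apart.

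The libraries of the mutant did not overlap with those of Col-0 for 6 of the 10 genes in *fio1-1* and for 8 of the 10 in *fio1-2*. Among the 7 tested genes these counts were 5 and 7. Over all genes tested, 63.0% did not overlap in *fio1-1* and 64.4% in *fio1-2*.

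**Figure D1:**
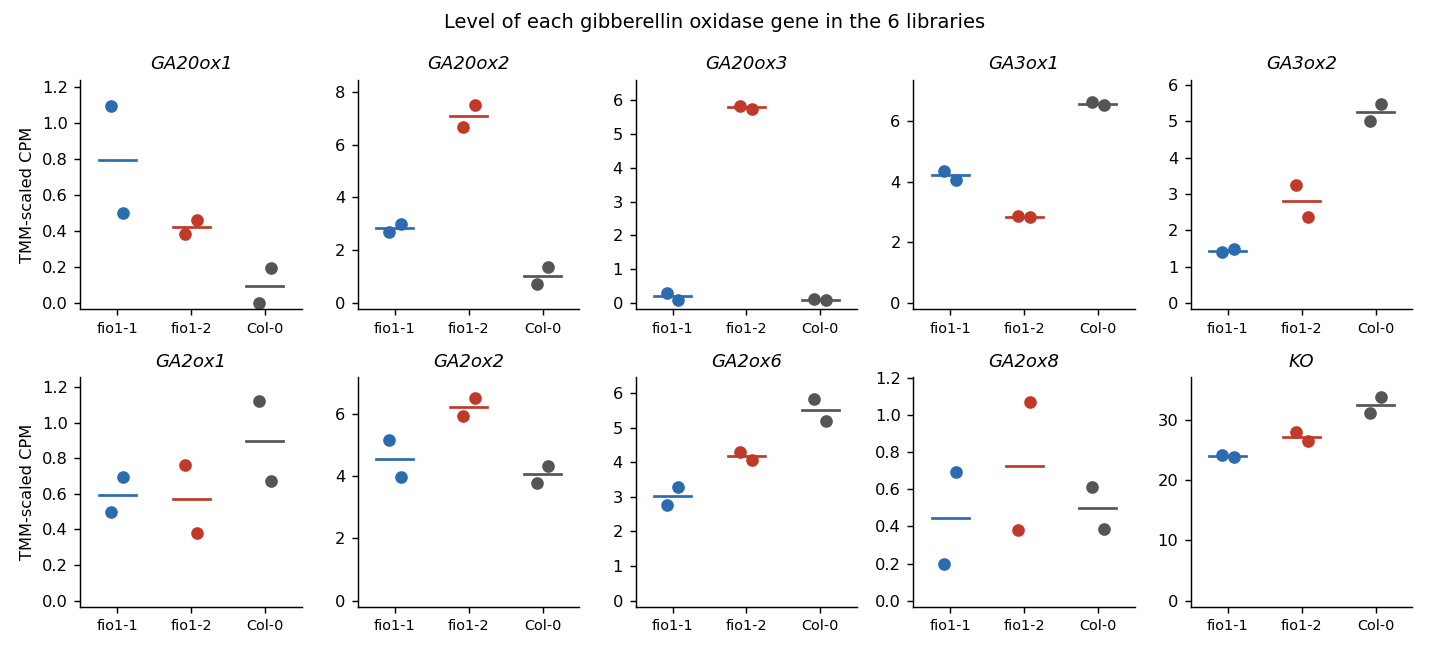
TMM-scaled CPM (vertical axes, each from about 0 with its own scale) of the 10 oxidase genes in each library of *fio1-1*, *fio1-2* and Col-0; points are libraries and lines are means of 2. *GA20ox2* sits between 6.69 and 7.50 CPM in *fio1-2* and at or under 1.35 CPM in Col-0, while *GA3ox1* and *GA3ox2* are lower in all 4 mutant libraries than in both Col-0 libraries.

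The 250 bases before the annotated starts of *GA20ox2*, *GA20ox3* and *GA3ox1*, each called in at least 1 mutant, are shown as a description. Sequences are RefSeq TAIR10.1, printed 5′ to 3′ in the direction of the gene. Capitals mark matches, on either strand, to CAACA, which the AP2 domain of TEM proteins binds, and to CATGCA, the RY element that the B3 domain of FUS3 and ABI3 binds. GA20ox2 lies on the minus strand at chr5:21056882-21057131, GA20ox3 on the minus strand at chr5:2245340-2245589, and GA3ox1 on the minus strand at chr1:5346343-5346592.
GA20ox2: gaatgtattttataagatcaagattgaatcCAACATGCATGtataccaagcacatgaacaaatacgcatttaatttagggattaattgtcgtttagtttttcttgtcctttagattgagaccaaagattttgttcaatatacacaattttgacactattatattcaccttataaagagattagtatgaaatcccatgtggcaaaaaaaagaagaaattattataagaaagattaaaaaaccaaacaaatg
GA20ox3: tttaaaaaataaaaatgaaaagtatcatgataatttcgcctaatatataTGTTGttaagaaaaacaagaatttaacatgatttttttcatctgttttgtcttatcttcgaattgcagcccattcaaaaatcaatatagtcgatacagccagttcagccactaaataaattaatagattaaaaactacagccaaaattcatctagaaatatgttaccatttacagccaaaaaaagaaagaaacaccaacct
GA3ox1: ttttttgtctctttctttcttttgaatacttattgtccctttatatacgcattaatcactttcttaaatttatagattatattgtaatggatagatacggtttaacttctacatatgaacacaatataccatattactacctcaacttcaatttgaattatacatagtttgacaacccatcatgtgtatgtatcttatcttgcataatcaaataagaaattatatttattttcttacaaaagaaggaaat

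The window was searched in 9 of the oxidase genes. CAACA occurred in 6 of the 9, namely *GA20ox1*, *GA20ox2*, *GA20ox3*, *GA2ox1*, *GA2ox2* and *GA2ox8*, and in 47.4% of 27443 protein-coding genes. CATGCA occurred in 2 of the 9, *GA20ox2* and *GA2ox6*, and in 8.43% of all windows. In both it was part of the palindrome CATGCATG, which occurred in 0.776% of all windows, and in *GA20ox2* this run began inside the CAACA match. CACCTG, bound by the B3 domain of TEM-type proteins, and the G-box CACGTG, bound by proteins such as PIF1, occurred in 0 of the 9, and in 2.57% and 6.49% of all windows. These matches describe letters in a short window and were not tested for binding.

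*GA20ox2* (AT5G51810, chromosome 5, 21055179 to 21056881) encodes a GA 20-oxidase that contributes to stem elongation and flowering. It had 2.68 and 2.98 CPM in *fio1-1* and 6.69 and 7.50 CPM in *fio1-2*, against 0.715 and 1.35 CPM in Col-0. The 3 groups did not overlap, and the order was Col-0, *fio1-1*, *fio1-2*. Its log2 fold change against Col-0 was 1.47 ± 0.44 (SE) in *fio1-1* (adjusted p = 0.00763) and 2.78 ± 0.40 in *fio1-2* (adjusted p = 2.9e-08). The 6.88-fold rise in *fio1-2* exceeded the 2.76-fold rise in *fio1-1*, since *fio1-2* was higher than *fio1-1* by 1.32 ± 0.27 on the log2 scale (adjusted p = 0.000112).

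These levels rest on 57 reads summed over the *fio1-1* libraries and 168 over the *fio1-2* libraries, against 21 over the Col-0 libraries. Without Col-0 replicate 1, which held 7 of those reads, the log2 fold change in *fio1-1* was 1.04 and no longer passed (adjusted p = 0.169). Without *fio1-1* replicate 2 the adjusted p was 0.0504.

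*GA20ox3* (AT5G07200, chromosome 5, 2243553 to 2245339) encodes a GA 20-oxidase best known from developing seeds. It had 0.298 and 0.0993 CPM in *fio1-1* and 5.83 and 5.74 CPM in *fio1-2*, against 0.102 and 0.0962 CPM in Col-0. Only *fio1-2* stood apart, with 61 and 75 reads, against 3 and 1 reads in *fio1-1* and 1 read in each Col-0 library. The scaled count ratio against Col-0 was 58.3 in *fio1-2*, with a 95% exact counting interval of 15.8 to 486, and 2.00 in *fio1-1*, with an interval of 0.287 to 22.1. The fitted log2 fold change of 5.29 ± 0.72 in *fio1-2* (adjusted p = 8.82e-09) depends on the prior count added to such low values. Against *fio1-1*, *fio1-2* was higher by 4.68 ± 0.67 on the log2 scale (adjusted p = 5.38e-08), and the counting interval of the 29.1-fold ratio was 11.1 to 108.

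*GA20ox1* (AT4G25420, chromosome 4, 12990851 to 12992585), which contributes most to stem elongation among the GA 20-oxidases, was near the limit of detection. It had 11 and 5 reads in *fio1-1* and 4 and 6 reads in *fio1-2*, against 0 and 2 reads in Col-0. A count of 0 in Col-0 replicate 1 allows up to 0.306 CPM. All mutant libraries were above both Col-0 libraries. The scaled count ratio was 8.01 in *fio1-1*, with a 95% exact counting interval of 1.88 to 71.9, and 4.29 in *fio1-2*, with an interval of 0.914 to 40.3. In a fit with no filter on low counts its adjusted p was 0.0074 in *fio1-1* and 0.0597 in *fio1-2* (limma-voom).

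Summed over the 3 GA 20-oxidase genes, the level was 2.45 ± 0.22 CPM per kb in *fio1-1* and 8.42 ± 0.37 in *fio1-2*, against 0.785 ± 0.371 in Col-0 (SD, n = 2 each). *GA20ox2* held 74.0% of that sum in *fio1-1*, 54.0% in *fio1-2* and 84.2% in Col-0. *GA20ox3* held 5.04% in *fio1-1*, 42.8% in *fio1-2* and 7.86% in Col-0. *GA20ox2* held the largest share in every group, and the share of *GA20ox3* was higher in *fio1-2* than in the other groups. An exact permutation test of 2 libraries against 2 cannot give a p under 0.333, so sums are given as descriptions.

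Genes of seed maturation were also higher in the mutants, most of all in *fio1-2*. The 12 listed storage protein, oleosin and embryo regulator genes summed to 43.2 and 39.9 CPM in *fio1-1* and 8709 and 9009 CPM in *fio1-2*, against 1.64 and 1.83 CPM in Col-0. In *fio1-2* they made up 0.873% and 0.901% of all counts. Of the 12, 11 were tested, and 9 were called higher in *fio1-1* and 11 in *fio1-2*. Over all genes tested, 2.92% were called higher in *fio1-1* and 4.24% in *fio1-2*. The 9 storage protein and oleosin genes had at most 4 reads in any Col-0 library and passed the filter only through the mutants. The 11 include *FUS3*, which was tested only through its counts in *fio1-2*. The differences of these genes are thus set in part by the filter. The embryo regulator *LEC1* had no count in *fio1-1* or Col-0 and 1 read in each *fio1-2* library. The part of seed or embryo tissue in the levels of *GA20ox2* and *GA20ox3* was not tested. With scaling factors computed without these genes, all counts of oxidase genes that passed were the same.

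**Figure D2:**
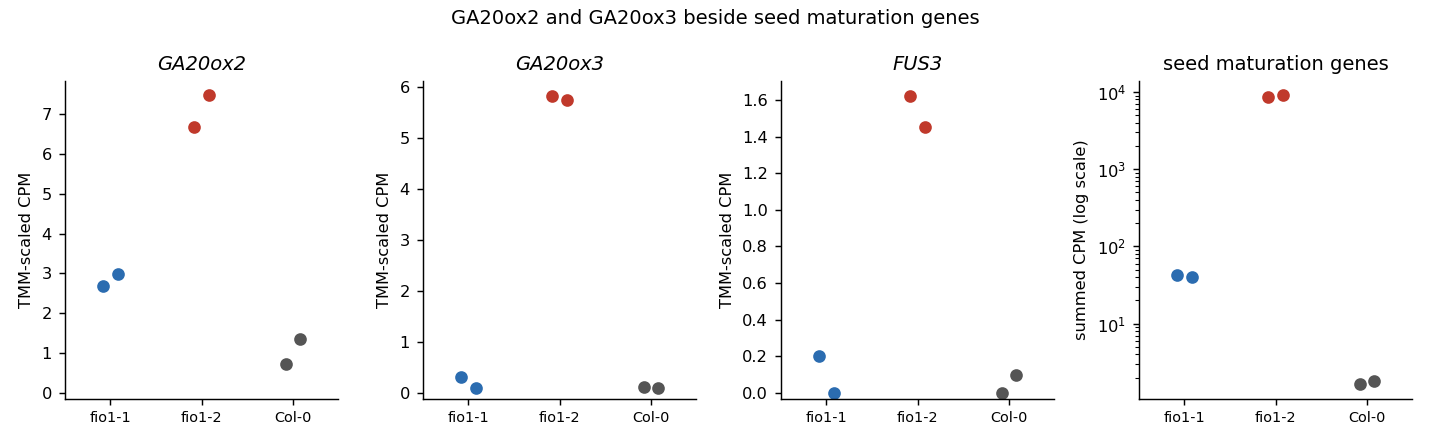
Levels in each library of *fio1-1*, *fio1-2* and Col-0 of *GA20ox2*, *GA20ox3* and the embryo regulator *FUS3* (TMM-scaled CPM, linear axes), and the summed CPM of the 12 seed maturation genes (log axis). Both *fio1-2* libraries are highest in each panel, and the seed sum is also higher in *fio1-1* (43.2 and 39.9 CPM) than in Col-0 (1.64 and 1.83 CPM).

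*GA3ox1* (AT1G15550, chromosome 1, 5344388 to 5346342) encodes the GA 3-oxidase that supplies most bioactive gibberellin in vegetative growth, together with GA3ox2. It had 4.37 and 4.07 CPM in *fio1-1* and 2.87 and 2.83 CPM in *fio1-2*, against 6.64 and 6.54 CPM in Col-0. The groups did not overlap, with *fio1-2* lowest. It fell by 0.64 ± 0.24 (SE) on the log2 scale in *fio1-1* (adjusted p = 0.0378) and by 1.20 ± 0.26 in *fio1-2* (adjusted p = 0.000147). The log2 difference of *fio1-2* minus *fio1-1*, −0.56 with a 95% interval of −1.13 to 0.00, did not pass (adjusted p = 0.176). The fall in *fio1-1* no longer passed under 7 of 18 alternatives, among them the omission of any 1 library of *fio1-1* or Col-0 (adjusted p of 0.113 to 0.176). In *fio1-2* it passed under all 18.

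*GA3ox2* (AT1G80340, chromosome 1, 30200466 to 30202349) had 1.39 and 1.49 CPM in *fio1-1* and 3.25 and 2.37 CPM in *fio1-2*, against 5.01 and 5.48 CPM in Col-0. Here *fio1-1* was lowest, the reverse of the order seen for *GA3ox1*. The gene fell by 1.83 ± 0.36 in *fio1-1* (adjusted p = 3.87e-05), a 3.56-fold reduction. It fell by 0.94 ± 0.28 in *fio1-2* (adjusted p = 0.0056). The log2 difference of *fio1-2* minus *fio1-1* was 0.90, with a 95% interval of 0.13 to 1.67, and did not pass (adjusted p = 0.0997). In *fio1-1* it was called under all 18 alternatives. In *fio1-2* the adjusted p no longer passed without *fio1-2* replicate 2 (adjusted p = 0.131), without Col-0 replicate 2 (adjusted p = 0.0524) and in DESeq2 (adjusted p = 0.11).

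Both GA 3-oxidases summed to 3.76 ± 0.09 CPM per kb in *fio1-1* and 3.80 ± 0.44 in *fio1-2*, against 7.93 ± 0.18 in Col-0 (SD, n = 2 each). The sums of the mutants overlapped although the composition differed. *GA3ox1* made up 73.8% of the sum in *fio1-1* and 49.3% in *fio1-2*, against 54.6% in Col-0.

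**Figure D3:**
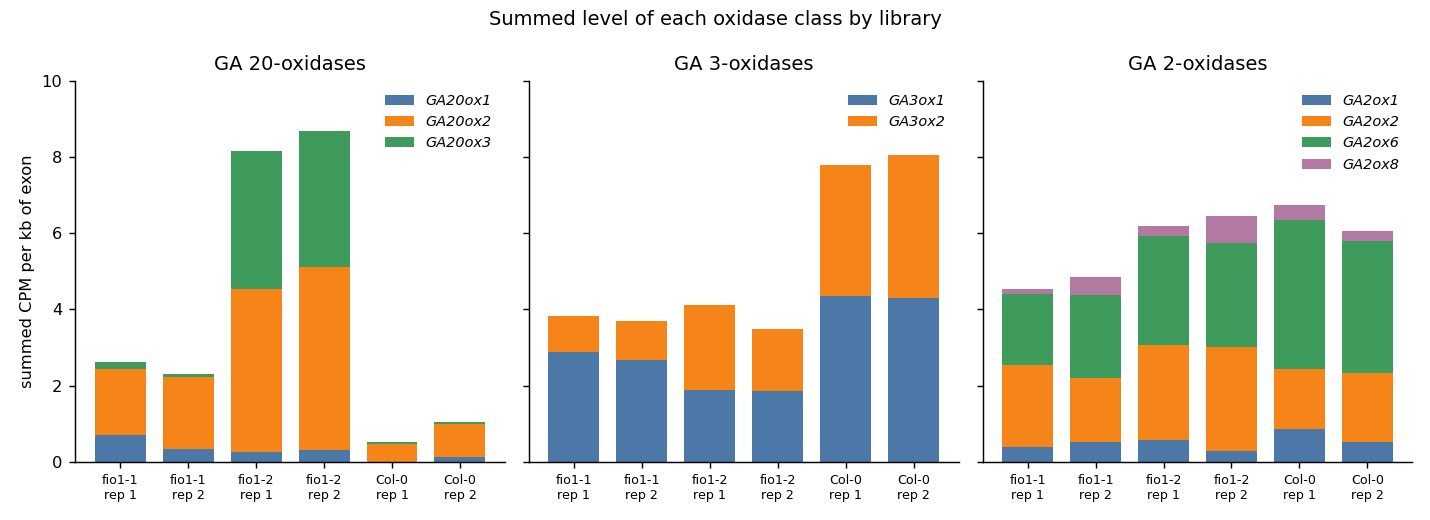
Summed level (CPM per kb of exon, vertical axis from 0) of the GA 20-oxidase, GA 3-oxidase and GA 2-oxidase genes in each of the 6 libraries, coloured by gene. In Col-0 the GA 3-oxidase sum (7.80 and 8.05) is well above the GA 20-oxidase sum (0.522 and 1.05), whereas in *fio1-2* the GA 20-oxidase sum (8.16 and 8.68) is above the GA 3-oxidase sum (4.11 and 3.49).

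Among the GA 2-oxidases, *GA2ox2* and *GA2ox6* carried most of the level and moved differently. *GA2ox2* (AT1G30040, chromosome 1, 10537457 to 10540044) acts on C19 gibberellins. It had 5.16 and 3.97 CPM in *fio1-1* and 5.92 and 6.51 CPM in *fio1-2*, against 3.78 and 4.33 CPM in Col-0. The *fio1-1* libraries overlapped with Col-0 and the *fio1-2* libraries were above both. Its log2 fold change was 0.16 ± 0.27 in *fio1-1* (adjusted p = 0.711) and 0.62 ± 0.24 in *fio1-2* (adjusted p = 0.0428). The rise in *fio1-2* did not pass under 7 of 18 alternatives, with an adjusted p of 0.0577 to 0.234 when any 1 library of *fio1-2* or Col-0 was left out.

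*GA2ox6* (AT1G02400, chromosome 1, 486800 to 489651) also encodes an enzyme that acts on C19 gibberellins. It had 2.78 and 3.28 CPM in *fio1-1* and 4.30 and 4.06 CPM in *fio1-2*, against 5.83 and 5.19 CPM in Col-0. All mutant libraries were below both Col-0 libraries. It fell by 0.85 ± 0.28 in *fio1-1* (adjusted p = 0.0144). The log2 value for *fio1-2* was −0.40, with a 95% interval of −0.88 to 0.08 (adjusted p = 0.21), and the log2 difference of *fio1-2* minus *fio1-1* did not pass (0.46 ± 0.28, adjusted p = 0.301). The fall in *fio1-1* did not pass in DESeq2 (adjusted p = 0.0926), without Col-0 replicate 1 (0.0934), and without either *fio1-1* library (0.134 and 0.0553).

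*GA2ox1* (AT1G78440, chromosome 1, 29511561 to 29513100) and *GA2ox8* (AT4G21200, chromosome 4, 11302682 to 11306770) were too low to test. *GA2ox1*, which acts on C19 gibberellins, had 5 and 7 reads in *fio1-1* and 8 and 5 reads in *fio1-2*, against 11 and 7 reads in Col-0. *GA2ox8*, which acts on C20 precursors, had 2 and 7 reads in *fio1-1* and 4 and 14 reads in *fio1-2*, against 6 and 4 reads in Col-0. The groups overlapped for both genes, and no difference was detectable at this depth. The counting intervals of the ratio to Col-0 were 0.293 to 1.47 and 0.279 to 1.34 for *GA2ox1* in *fio1-1* and *fio1-2*. For *GA2ox8* they were 0.324 to 2.47 and 0.676 to 3.74.

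Summed over the 4 GA 2-oxidase genes, the level was 4.70 ± 0.23 CPM per kb in *fio1-1* and 6.33 ± 0.18 in *fio1-2*, against 6.40 ± 0.49 in Col-0 (SD, n = 2 each). The *fio1-2* and Col-0 sums overlapped and those of *fio1-1* were lower. *GA2ox6* held 43.1% of the sum in *fio1-1* and 44.1% in *fio1-2*, against 57.5% in Col-0. *GA2ox2* held 40.8% in *fio1-1* and 41.2% in *fio1-2*, against 26.6% in Col-0.

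*KO* (AT5G25900, chromosome 5, 9035817 to 9038423) encodes the cytochrome P450 that oxidises ent-kaurene and was the most highly expressed of the 10 genes per kb. It had 24.2 and 23.7 CPM in *fio1-1* and 28.0 and 26.4 CPM in *fio1-2*, against 31.1 and 33.8 CPM in Col-0. The 3 groups did not overlap. It fell by 0.44 ± 0.10 in *fio1-1* (adjusted p = 0.000827) and by 0.26 ± 0.10 in *fio1-2* (adjusted p = 0.0357), small changes of 1.35-fold and 1.20-fold. The fall in *fio1-1* passed under all 18 alternatives and that in *fio1-2* failed to pass under 4, with an adjusted p of 0.224 in DESeq2, 0.0548 with upper-quartile scaling, 0.287 without Col-0 replicate 2 and 0.199 without *fio1-2* replicate 2.

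Set directly against each other, *fio1-2* and *fio1-1* differed in 2 of the 10 genes, 7 of them tested. The 2 genes were *GA20ox2* and *GA20ox3*, both higher in *fio1-2* and both called. Of these, *GA20ox3* was tested only through its counts in *fio1-2*, so its call is set in part by the filter. Of all genes tested, 18.1% passed and 2.68% were called in this comparison, 9.31% and 2.13% being higher in *fio1-2*. The libraries of the mutants did not overlap for 8 of the 10 genes. Among the 7 tested genes this count was 7, against 54.8% of all genes tested. Both calls held under all 18 alternatives.

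**Figure D4:**
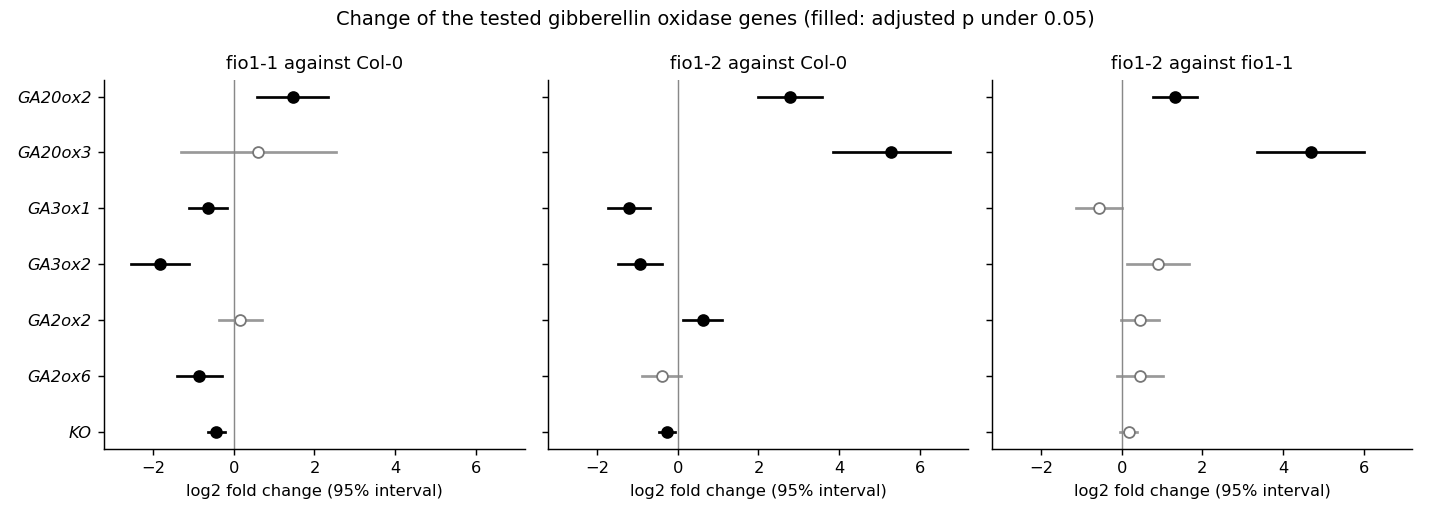
Log2 fold change (horizontal axes) with its 95% interval for the 7 tested oxidase genes in *fio1-1* against Col-0, *fio1-2* against Col-0 and *fio1-2* against *fio1-1*; filled points have an adjusted p under 0.05. *GA20ox2* is to the right of 0 in all 3 panels (1.47, 2.78 and 1.32), and *GA3ox1*, *GA3ox2* and *KO* are to the left of 0 in both comparisons with Col-0.

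Most other genes of gibberellin metabolism were low or did not pass the test. Of 15 listed, 5 were tested, 4 were at 0 in all 6 libraries (*GA20ox5*, *GA3ox3*, *GA3ox4* and *GA2ox3*), and a count of 0 allows up to between 0.230 and 0.306 CPM depending on the library. Only *KS*, the ent-kaurene synthase gene just upstream of *KO*, passed the test against Col-0. It had 6.55 and 5.76 CPM in *fio1-1* and 8.12 and 10.6 CPM in *fio1-2*, against 10.3 and 10.6 CPM in Col-0. It fell by 0.76 ± 0.20 in *fio1-1* (adjusted p = 0.00205) and stood at −0.15 on that scale in *fio1-2* (adjusted p = 0.549). The median log2 fold change of the 5 tested genes was −0.33 in *fio1-1* and 0.02 in *fio1-2*. Over all genes tested, 28.6% passed in *fio1-1* and 32.5% in *fio1-2*.

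Of 12 listed regulators of these oxidase genes, all 12 were tested. In *fio1-1*, 2 rose and 2 fell, and in *fio1-2*, 5 rose and 2 fell, against 28.6% and 32.5% of all genes that passed in either direction. *TEM1*, a repressor of the *GA3ox* genes, had 60.6 and 56.9 CPM in *fio1-1* and 93.2 and 83.4 CPM in *fio1-2*, against 188 and 191 CPM in Col-0. It fell by 1.69 ± 0.06 in *fio1-1* (adjusted p = 1.81e-33) and by 1.11 ± 0.06 in *fio1-2* (adjusted p = 5.36e-27). *TEM2* had 55.3 and 48.9 CPM in *fio1-1* and 93.3 and 92.4 CPM in *fio1-2*, against 163 and 173 CPM in Col-0. It fell by 1.69 ± 0.07 in *fio1-1* (adjusted p = 2.37e-32) and by 0.85 ± 0.06 in *fio1-2* (adjusted p = 3.64e-21). The transcripts of these repressors and those of *GA3ox1* and *GA3ox2* were thus all lower in both mutants than in Col-0. For both *TEM* genes *fio1-1* was below *fio1-2*, and the log2 differences of *fio1-2* minus *fio1-1* passed (0.58 for *TEM1* and 0.84 for *TEM2*, adjusted p = 4.1e-10 and 1.35e-15).

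*SPT*, which represses *GA3ox* genes in seeds, rose in both mutants. It had 15.7 and 12.6 CPM in *fio1-1* and 12.7 and 14.4 CPM in *fio1-2*, against 4.09 and 6.35 CPM in Col-0. Its log2 fold change was 1.45 ± 0.21 in *fio1-1* (adjusted p = 4.63e-08) and 1.40 ± 0.21 in *fio1-2* (adjusted p = 6.44e-08). *ATH1*, a homeodomain protein gene, rose by 0.95 and 0.79 on the log2 scale in *fio1-1* and *fio1-2* (adjusted p = 2.23e-11 and 4.95e-09).

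In *fio1-2* alone 3 further regulators passed. *SVP*, which represses *GA20ox2*, had 51.6 and 45.1 CPM in *fio1-2*, against 35.4 and 37.6 CPM in Col-0 (log2 fold change 0.39, adjusted p = 2e-04). *PIF1*, which represses *GA3ox* genes in seeds, rose by 0.37 (adjusted p = 0.002). *FUS3*, an embryo regulator that represses *GA3ox* genes, had 17 and 19 reads in *fio1-2*, against 0 and 1 read in Col-0 (adjusted p = 1.2e-05). All 3 also differed between *fio1-2* and *fio1-1* (adjusted p = 5.05e-05, 0.027 and 0.00011). Of these, *FUS3* passed the filter on low counts only through *fio1-2*, so its differences are set in part by the filter.

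Transcripts that DELLA proteins induce moved in both directions. Of 6 listed, all tested, 2 rose and 3 fell in *fio1-1*, and 1 rose and 1 fell in *fio1-2*. Over all genes tested, 28.6% passed in *fio1-1* and 32.5% in *fio1-2*, in either direction. The median log2 fold change of the 6 was −0.32 and −0.17. *SCL3*, a GRAS protein gene, fell by 0.74 in *fio1-1*, with 7.64 and 6.36 CPM, against 11.3 and 11.9 CPM in Col-0. The gibberellin receptor gene *GID1A* fell by 0.30 and the RING protein gene *XERICO* by 0.60 in *fio1-1* (adjusted p = 0.0119 and 0.00121). *BHLH137* rose in *fio1-1*, with an average of 19.6 ± 2.9 CPM, and fell in *fio1-2*, with 7.81 ± 0.44 CPM, against 14.9 ± 0.1 CPM in Col-0 (SD, n = 2 each, limma-voom adjusted p = 0.0236 and 3.89e-06). *LBD40* had 8 and 10 reads in *fio1-1* and 68 and 74 reads in *fio1-2*, against 0 and 2 reads in Col-0. It passed in both mutants (adjusted p = 0.00237 and 1.11e-09). However, *LBD40* passed the filter on low counts only through *fio1-2*, so its differences are set in part by the filter.

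Of the 3 listed *GASA* genes, which gibberellin is known to regulate, 2 rose and 1 fell in each mutant. The share of all genes that passed was 28.6% in *fio1-1* and 32.5% in *fio1-2*. *GASA6* had 305 and 289 CPM in *fio1-1* and 217 and 227 CPM in *fio1-2*, against 79.7 and 84.8 CPM in Col-0. *GASA4* rose by 0.63 and 0.62 on the log2 scale in *fio1-1* and *fio1-2*. *GASA1* fell by 0.85 in *fio1-1* and by 1.44 in *fio1-2*. Its levels were 253 and 233 CPM in *fio1-1* and 160 and 161 CPM in *fio1-2*, against 436 and 437 CPM in Col-0. Each of these changes passed (largest adjusted p = 2.68e-19).

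**Figure D5:**
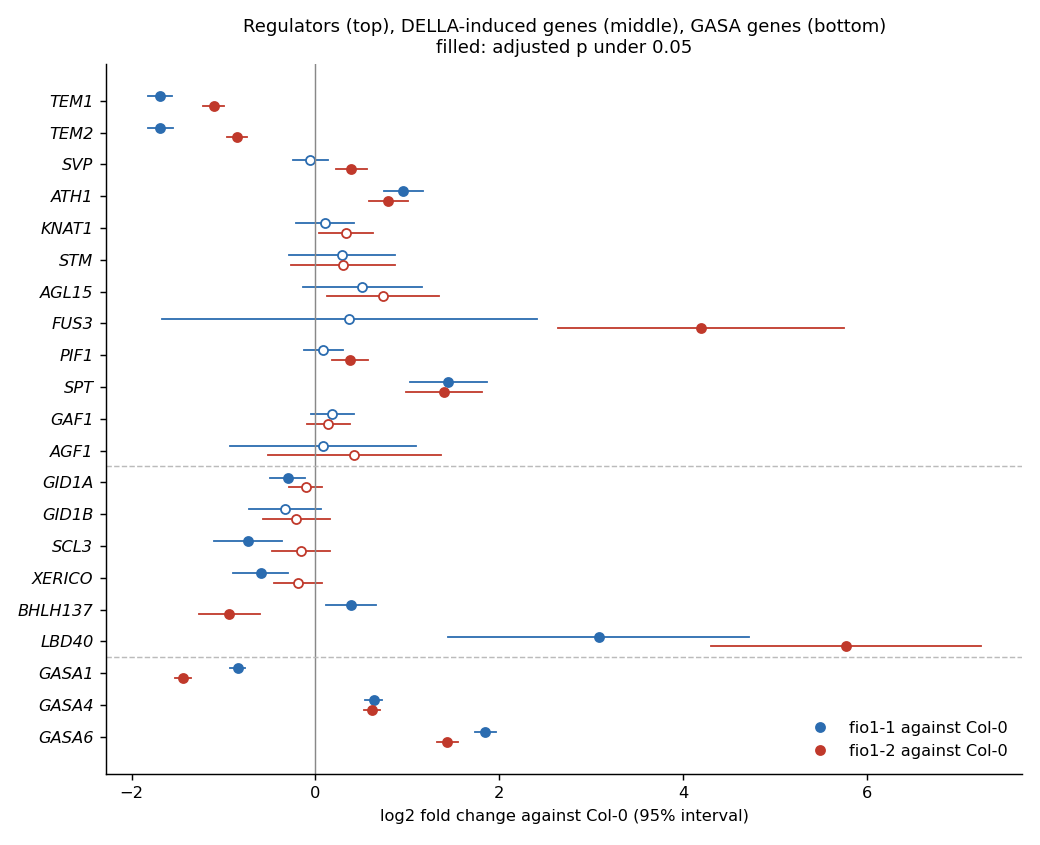
Log2 fold change (horizontal axis, with 95% interval) against Col-0 in *fio1-1* (blue) and *fio1-2* (red) of 12 regulators of the oxidase genes, 6 DELLA-induced genes and 3 *GASA* genes; filled points have an adjusted p under 0.05. *TEM1* and *TEM2* are left of 0 in both mutants, *SPT* and *ATH1* right of 0 in both, and *BHLH137* lies on opposite sides (0.39 in *fio1-1* and −0.94 in *fio1-2*).

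The genes whose log2 CPM was most like that of each called oxidase gene over the 6 libraries, among 20694 genes with a mean of at least 1 CPM, are given as a description. For *GA20ox2* these were *MYB29* (AT5G07690, Pearson's r = 0.9983) and *PDLP1* (AT5G43980, r = 0.9969). For *GA20ox3* they were AT1G72100, annotated as a late embryogenesis abundant domain protein (r = 0.9999), and AT5G38020, annotated as a methyltransferase (r = 0.9985). AT1G72100 averaged 0.199 CPM in *fio1-1* and 4.25 CPM in *fio1-2*, against 0.0992 CPM in Col-0. Like *GA20ox3*, it was near 0 outside *fio1-2*, so their r rests on *fio1-2* against the rest. For *GA3ox1* they were *FNR2* (AT1G20020, r = 0.9989) and *BTS* (AT3G18290, r = 0.9986), and for *GA3ox2* eIFiso4G1 (AT5G57870, r = 0.9991) and AT2G05540, annotated as a glycine-rich protein (r = 0.9975). With 6 libraries in 3 groups, between 15 and 43 genes reached r above 0.99 for each of the 4 genes.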

How the data were processed

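Each library had a table of raw counts of reads per gene, as deposited. Per the labels and the methods of the study, the authors trimmed reads with Trim Galore 0.6.3, aligned them to TAIR10 with HISAT2 2.1.0 and counted them with HTSeq 0.9.1. Whether counting used strand is not given in the sources used here. The authors' own tables of log2 fold changes and p-values per mutant were not used. Total counts were 9717111 to 13055457 per library.

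Counts of all 6 libraries were fitted with limma-voom (R 4.3.3, limma 3.58.1), a mean per genotype, TMM factors of 0.983 to 1.01, and the filterByExpr filter of edgeR 4.0.16 (minimum count 10, minimum total 15), which kept 21268 of 32833 genes. Adjusted p-values without another tool's name are from this limma-voom fit and were adjusted by the Benjamini-Hochberg method over these genes. The variance of each gene had 3 residual degrees of freedom, beside 62.14 prior degrees of freedom borrowed from all genes tested. An exact permutation test (two-sided) of 2 libraries against 2 has a smallest p of 0.333. Count ratios carry 95% exact conditional intervals and floors of 3 counts, which cover counting error only. Names, coordinates and exon lengths are from RefSeq TAIR10.1, which matched 21226 tested genes. The promoter window of 1 oxidase gene is not reported here. Fits were tested on simulated data.

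The oxidase genes and all lists (other gibberellin genes, regulators, DELLA-induced and *GASA* genes, and leaf, root, meristem, floral and seed markers) were chosen with earlier results of these data known, and support nothing by themselves. Named are all 10 oxidase genes, each gene of the gibberellin, regulator, DELLA-induced and *GASA* lists that passed against Col-0, *TEM1* and *TEM2*, and for each called oxidase gene the 2 genes most like it. The 18 alternatives comprised DESeq2 1.42.0, edgeR's quasi-likelihood test, limma-trend, other scalings, filters and groups fitted, a replicate block, and the omission of each library.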

Additional observations from a re-analysis of the deposited data

Results flagged for a closer look

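The changes of 2 oxidase genes against Col-0 differed between the mutant alleles by a direct test. *GA20ox2* was higher in *fio1-2* than in *fio1-1* by 1.32 on the log2 scale (limma-voom adjusted p = 0.000112), with 70 and 98 reads in *fio1-2*, against 27 and 30 in *fio1-1*. *GA20ox3* was higher in *fio1-2* by 4.68 (limma-voom adjusted p = 5.38e-08), with 61 and 75 reads, against 3 and 1 in *fio1-1*. That gene passed the filter on low counts only through *fio1-2*, so its difference is set in part by the filter. In both comparisons both *fio1-2* libraries were above both *fio1-1* libraries.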

How the results depend on the processing

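Over 18 alternatives, 12 of 21 log2 fold changes of the 7 tested genes (3 comparisons each) kept their direction and their side of the threshold throughout. Of 377 values, 347 did so, 27 lost the threshold, 1 gained it (*GA3ox2* in *fio1-2* against *fio1-1* with limma-trend, 0.87, adjusted p = 0.0367) and 2 changed sign. Both sign changes came without *fio1-1* replicate 1, for *GA20ox3* (−0.002, with 1.222 as the highest value when 1 library was left out) and *GA2ox2* (−0.035, with 0.342 as the highest) in *fio1-1*, neither of which had passed. With DESeq2, 3 of the oxidase genes passed in *fio1-1* and 3 in *fio1-2*, in place of 5 and 6, while over all genes DESeq2 passed 3574 and 4004, in place of 6073 and 6911. Leaving out 1 library at a time, 2 to 6 passed in *fio1-1* (2 without Col-0 replicate 1, and 3 without either *fio1-1* library), and 3 to 6 in *fio1-2* (3 without Col-0 replicate 2 or *fio1-2* replicate 2). Genes called in *fio1-1* then numbered 1 to 3, with 1 without Col-0 replicate 1. Where 1 library of a group was left, it was assumed to vary like the other groups. In fits with 1 library of a compared group left, fewer of all genes tested passed too. Fewer of all genes were then also called in *fio1-1*. The cause of these losses was not tested, beyond the smaller number of samples. Over all genes tested, libraries with the same replicate number showed no shared deviation between groups (correlations of 0.000309, −0.00432 and −0.0281). They were therefore not treated as pairs. A deviation shared by only part of the genes could be missed by these correlations and was not tested. With a replicate block, *GA2ox2* in *fio1-2* did not pass (0.615, adjusted p = 0.053), the other oxidase genes that had passed still did, and 6066, 6616 and 3617 of all genes passed in the 3 comparisons. With few reads per library, small changes of the oxidase genes other than *KO* were below what this depth resolves.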
